A study of Mus musculus with 42 samples.

Results

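The 5 genes examined were Per1, Per2, Per3, Cry1, and Cry2, the period and cryptochrome genes of the circadian clock. They were taken by gene name from a table of read counts for 54532 mouse genes, and all 5 were found and passed the filter on low counts. The data are 42 poly(A) RNA libraries labelled as liver, each from a female mouse of strain C57BL/6 (C57BL/6NHsd in the study's methods). From 3 weeks of age and for 3 weeks, mice ate freely either the AIN93G diet, in which fat gives 16% of the energy, or a high-fat diet (HFD), in which it gives 45%. Mice were killed every 4 h from ZT 0 to ZT 24, where Zeitgeber time (ZT) counts the hours from lights on and lights went off at ZT 12, and 3 libraries were made per diet at each of the 7 times. The labels name no genetic change, and the mice of both groups were injected with ketamine and xylazine when they were killed. The labels number no replicates within groups, so replicates are numbered here only to name them. Numbers in the titles are not replicate numbers of that kind: 8 of them are carried by more than 1 library, 18 libraries in all, no pair of groups shares more than 1, and the labels do not say what they mean. Each p-value measures only the spread between libraries, estimated over all groups of a fit.

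In the mammalian clock, a dimer of CLOCK (or its relative NPAS2) and BMAL1, the product of Arntl, binds E-box sequences and switches on the period and cryptochrome genes. The PER and CRY proteins then gather in the nucleus and repress the same dimer, which closes a feedback loop of about a day. PER proteins are phosphorylated by casein kinases and removed through the ubiquitin ligase subunit βTrCP (Btrc), and CRY proteins are degraded in turn, so the loop can start again. In liver, this loop times much of lipid, glucose, and bile acid metabolism, and it is set in part by meals.

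Promoters are shown first, because they hold the letters through which clock factors are known to act on these genes. RefSeq promoter windows of 300 bases, from 250 before to 50 after a start site (build GRCm38.p6), were at hand for 4 of the 5 genes. Capitals mark the E-box CACGTG, its variant CACGTT (the E'-box), or the D-box TTATGTAA, the site of the PAR bZIP activators DBP, TEF, and HLF and of the repressor NFIL3, each read on both strands and with no overlap between motifs. The Per1 window is at chr11:69098699-69098998 on the + strand, Per3 at chr4:151044616-151044915, Cry1 at chr10:85185005-85185304, and Cry2 at chr2:92434020-92434319, the last 3 on the - strand.
Per1: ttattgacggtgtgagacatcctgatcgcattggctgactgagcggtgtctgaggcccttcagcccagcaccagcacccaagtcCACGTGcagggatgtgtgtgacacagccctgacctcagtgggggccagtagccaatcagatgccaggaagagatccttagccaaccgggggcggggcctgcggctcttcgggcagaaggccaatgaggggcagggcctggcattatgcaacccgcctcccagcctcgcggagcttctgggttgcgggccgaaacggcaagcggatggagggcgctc
Per3: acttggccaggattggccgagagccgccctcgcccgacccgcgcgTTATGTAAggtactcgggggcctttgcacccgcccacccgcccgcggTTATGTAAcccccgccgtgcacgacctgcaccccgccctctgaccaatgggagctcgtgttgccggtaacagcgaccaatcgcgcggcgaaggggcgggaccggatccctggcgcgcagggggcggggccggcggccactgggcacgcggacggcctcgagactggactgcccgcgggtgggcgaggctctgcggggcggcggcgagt
Cry1: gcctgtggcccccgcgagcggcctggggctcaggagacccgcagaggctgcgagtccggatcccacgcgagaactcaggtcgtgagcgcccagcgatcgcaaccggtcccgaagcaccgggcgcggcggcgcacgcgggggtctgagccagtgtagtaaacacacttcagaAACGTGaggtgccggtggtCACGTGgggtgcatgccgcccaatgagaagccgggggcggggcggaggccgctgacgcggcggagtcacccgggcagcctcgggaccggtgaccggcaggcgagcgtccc
Cry2: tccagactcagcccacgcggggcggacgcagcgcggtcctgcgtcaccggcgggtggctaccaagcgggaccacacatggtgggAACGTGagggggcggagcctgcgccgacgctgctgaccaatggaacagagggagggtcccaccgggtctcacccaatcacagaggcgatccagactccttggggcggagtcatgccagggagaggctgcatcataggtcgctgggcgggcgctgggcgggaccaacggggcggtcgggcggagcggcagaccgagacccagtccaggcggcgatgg

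The Per1 window held 1 E-box, starting at position -166 from the start site. Cry1 held an E-box at position -60 and an E'-box at position -79, and Cry2 an E'-box at position -166. The Per3 window had neither, and held instead 2 D-boxes at positions -205 and -158. Of 32851 RefSeq mouse promoter windows of this length, 7.15% held the E-box, 4.68% the E'-box, and 0.938% the D-box, and 0.0213% held 2 or more D-boxes. None of the windows printed held TAGGTCA, the element of the ROR and REV-ERB receptors, which is in 2.61% of all windows. A second RefSeq start of Per1, at chr11:69099902-69100201, held none of these 4 motifs. These matches describe letters only, and no binding was measured. Per2 has no window in the table used.

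Libraries fell into 2 kinds. In 32 of the 42 libraries, the hepatocyte gene Alb (albumin) was at 66434 to 111995 CPM (a gene's counts scaled to a library total of 1000000), and these are called liver libraries below. In the other 10, Alb was at 18.7 to 81.0 CPM and the adipocyte gene Adipoq (adiponectin) at 1455 to 2984 CPM, against at most 5.01 CPM in liver libraries. The summed level of 15 hepatocyte markers was 133500 to 181200 CPM in the first kind and 1348 to 2513 CPM in the second, where 9 of 10 adipocyte markers and 5 of 6 mammary epithelium markers were above every liver library. The adipocyte-rich libraries were all 6 of AIN93G at ZT 16 and ZT 20 and 2 of 3 at ZT 24 in each diet. Diet at ZT 16 and ZT 20 can therefore not be told apart from tissue, and liver contrasts rest on 24 libraries: both diets at ZT 0, 4, and 8, and the HFD at ZT 16 and ZT 20. Total counts were 14592481 to 21368409 per library, and all pairs of replicates of a group differed by more than counting noise (chi-square of at least 15.99 for each degree of freedom). In bulk RNA, fewer cells of a type and less RNA per cell cannot be told apart.

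Labels and clock genes also disagreed at ZT 12 and ZT 24. Per3 at ZT 12 was 99.8, 3.94, and 4.13 CPM on AIN93G and 65.0, 110, and 1.76 CPM on the HFD (replicates 1, 2, and 3). Cry1 in the same order was 15.8, 50.6, and 43.0 CPM on AIN93G and 17.99, 20.4, and 34.9 CPM on the HFD. Thus AIN93G replicate 1 and HFD replicates 1 and 2 had much Per3 and little Cry1, whereas the other 3 libraries had Per3 and Cry1 near the values of ZT 0, where Per3 was 1.34 to 3.56 CPM and Cry1 33.1 to 46.7 CPM; HFD replicate 3 lay within both ranges, and the AIN93G pair was above that of Per3, with replicate 2 also above that of Cry1. The labels call AIN93G replicate 2 and HFD replicate 3 light phase and the other 4 dark phase. In their titles, the 3 libraries with little Per3 carry numbers between 13 and 24 or between 37 and 48, as every library of ZT 0, 4, and 8 does, and the rest of the series carries 1 to 11 or 25 to 36. ZT 24 should be the same clock time as ZT 0, yet the single liver library of each diet at ZT 24 had Per3 at 130 CPM on AIN93G and 78.3 CPM on the HFD, with Cry1 at 15.7 and 21.7 CPM. The liver contrasts left out ZT 12, whose phase labels differ within each diet, and ZT 24, with a single liver library per diet. Values of both are given apart. That choice was made with earlier results of these data known, and Per3 and Cry1 are themselves among the genes tested. Most of the called steps and rhythms below were lost with these libraries included.

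**Figure D1:**
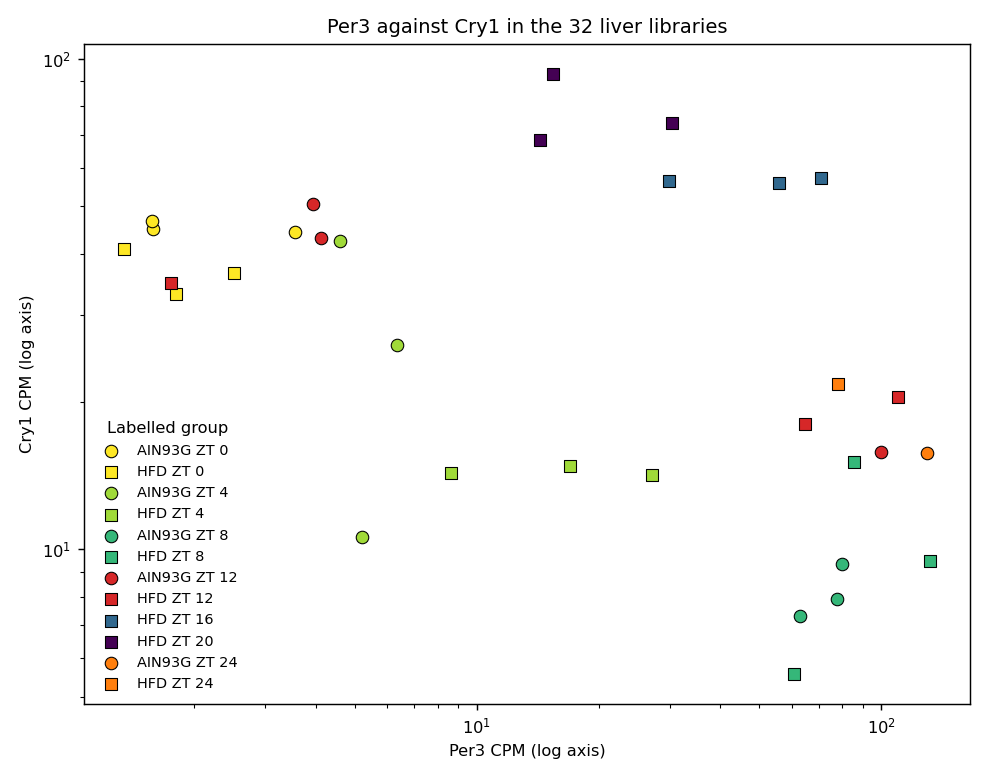
Per3 (x axis, CPM, log scale) against Cry1 (y axis, CPM, log scale) in each of the 32 liver libraries, with 1 point per library, circles for AIN93G, squares for the HFD, and colors for the labelled time point. At upper left, 3 libraries of ZT 12 lie near those of ZT 0 and AIN93G ZT 4 replicate 2, and the other 3 lie with both libraries of ZT 24 at lower right, where Per3 was 65.0 to 130 CPM and Cry1 15.7 to 21.7 CPM.

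Per1 lies on chromosome 11 (69095217 to 69109960, + strand) and encodes a PER protein whose gene also responds to light, glucocorticoids, and cAMP in many tissues. In AIN93G liver, Per1 was 15.2, 20.2, and 3.08 CPM at ZT 0, then 8.43, 17.1, and 8.87 CPM at ZT 4, and 52.0, 58.2, and 48.8 CPM at ZT 8. All 3 libraries of ZT 8 were above all 6 earlier ones, which overlapped among themselves. In HFD liver, Per1 was 38.5, 18.8, and 22.2 CPM at ZT 0, then 23.4, 20.5, and 13.6 CPM at ZT 4, and 47.5, 42.7, and 52.4 CPM at ZT 8. At night on the HFD it was 55.3, 39.7, and 32.8 CPM at ZT 16 and 20.3, 27.4, and 19.8 CPM at ZT 20. The libraries of ZT 8 and ZT 16 overlapped, and those of ZT 20 fell back into the range of ZT 0.

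Per1 rose 4.30-fold from ZT 0 to ZT 8 on AIN93G (log2 difference 2.11 ± 0.41 SE, adjusted p = 0.00292 by edgeR). The rise from ZT 4 to ZT 8 was 4.73-fold (2.24 ± 0.41, adjusted p = 0.00415). On the HFD, the same step was 2.54-fold and did not pass (log2 difference 1.34 ± 0.39, adjusted p = 0.0970). It passed when AIN93G ZT 0 replicate 3, the library with the lowest Per1, was left out of the shared fit (adjusted p = 0.0127). The test of any difference among the 5 HFD time points gave an adjusted p of 0.0683 for Per1, and passed without AIN93G ZT 0 replicate 3 (0.00416), without HFD ZT 0 replicate 1 (0.0445), with DESeq2 (0.0441), and with limma voom (0.0398).

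Per2, on chromosome 1 (91415982 to 91459324, - strand), encodes a PER protein whose mutation disturbs behavioral rhythm in mice. In AIN93G liver, Per2 was 15.1, 14.3, and 20.7 CPM at ZT 0, then 7.94, 13.8, and 24.92 CPM at ZT 4, and 45.2, 63.3, and 29.4 CPM at ZT 8. The lowest library of ZT 8 was thus above the highest of the 6 earlier ones by a small margin. In HFD liver, Per2 was 16.1, 15.9, and 9.30 CPM at ZT 0, then 29.1, 12.6, and 22.7 CPM at ZT 4, and 41.6, 25.9, and 45.9 CPM at ZT 8. It then reached 119, 117, and 120 CPM at ZT 16, the tightest of its groups, and was 80.8, 70.7, and 32.6 CPM at ZT 20. Every library of ZT 16 was above every other HFD library of the 5 time points.

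On AIN93G, Per2 was 2.86-fold higher at ZT 8 than at ZT 0 (log2 difference 1.51 ± 0.38, adjusted p = 0.0210) and 2.99-fold higher than at ZT 4 (1.58 ± 0.38, adjusted p = 0.0354). Per2 on the HFD rose 3.13-fold from ZT 8 to ZT 16 (log2 difference 1.65 ± 0.37, adjusted p = 0.00760). From ZT 20 to ZT 0 it was 4.67-fold lower (log2 difference -2.22 ± 0.38, adjusted p = 0.0161). The fall from ZT 16 to ZT 20 was 1.95-fold and missed the threshold (adjusted p = 0.392). Several of these calls rest on single libraries: without AIN93G ZT 8 replicate 2, the highest, the ZT 8 difference from ZT 0 had an adjusted p of 0.107, as it did without ZT 0 replicate 1 (0.0787) or 2 (0.109), and the difference from ZT 4 was lost without ZT 4 replicate 1 (0.163) or 2 (0.209) or ZT 8 replicate 1 (0.0750) or 2 (0.211). The step from ZT 20 to ZT 0 was lost without any of the 3 libraries of HFD ZT 0 or without ZT 20 replicate 1 or 2 (adjusted p = 0.0751 to 0.168).

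Per3 lies on chromosome 4 (151003652 to 151044665, - strand), and its loss has milder effects on behavior than that of Per1 or Per2. It had the widest range of the 5, from 1.34 CPM (24 counts) to 132 CPM (2315 counts) over the liver libraries, or 98.3-fold. In AIN93G liver, Per3 was 3.56, 1.59, and 1.57 CPM at ZT 0, then 5.21, 4.603, and 6.34 CPM at ZT 4, and 80.1, 62.8, and 77.8 CPM at ZT 8. None of the 3 groups overlapped. In HFD liver, Per3 was 2.51, 1.80, and 1.34 CPM at ZT 0, then 27.1, 8.65, and 17.01 CPM at ZT 4, and 85.6, 60.8, and 132 CPM at ZT 8. It was 55.8, 70.9, and 29.9 CPM at ZT 16 and 30.4, 15.5, and 14.3 CPM at ZT 20. Again ZT 0, 4, and 8 did not overlap, and even at ZT 20 every library was more than 5 times above the highest of ZT 0.

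From ZT 0 to ZT 8 on AIN93G, Per3 rose 33.6-fold (log2 difference 5.07 ± 0.48, adjusted p = 6.64e-07), and most of that came after ZT 4 (13.9-fold, 3.79 ± 0.44, adjusted p = 2.09e-05). On the HFD, the rise was already large by ZT 4 (9.61-fold, 3.26 ± 0.47, adjusted p = 0.000833) and went on to ZT 8 (5.43-fold, 2.44 ± 0.40, adjusted p = 0.00248). Per3 was 11.3-fold lower at ZT 0 than at ZT 20 (log2 difference -3.50 ± 0.47, adjusted p = 0.000981). The step from ZT 8 to ZT 16, a difference of -0.84 ± 0.38, and that from ZT 16 to ZT 20, -1.37 ± 0.39, missed the threshold (adjusted p = 0.156 and 0.208). Leaving out 1 library changed none of these Per3 calls. With limma voom on the same libraries, a test added after seeing the data, the HFD steps from ZT 0 to ZT 4 and from ZT 20 to ZT 0 missed the threshold (adjusted p = 0.0775 and 0.0707). With all 32 liver libraries in 1 fit, those of ZT 12 and ZT 24 included, the 3 called HFD steps and the AIN93G step from ZT 4 to ZT 8 no longer passed (adjusted p = 0.200 to 0.662).

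Cry1, on chromosome 10 (85131700 to 85185064, - strand), encodes a strong repressor of CLOCK and BMAL1 that is known to peak later than the PER genes. In AIN93G liver, Cry1 was 44.3, 44.9, and 46.7 CPM at ZT 0, then 10.6, 42.5, and 26.1 CPM at ZT 4, and 9.34, 7.32, and 7.91 CPM at ZT 8. In HFD liver, it was 36.5, 33.1, and 40.9 CPM at ZT 0, then 14.2, 14.3, and 14.8 CPM at ZT 4, and 15.0, 5.56, and 9.47 CPM at ZT 8. During the night on the HFD it was 55.7, 57.2, and 56.4 CPM at ZT 16 and 74.0, 93.1, and 68.3 CPM at ZT 20. Over ZT 0, 4, and 8, mean Cry1 thus went down where Per3 went up, whereas both were high at ZT 16 on the HFD. On that diet mean Cry1 was highest at ZT 20 and lowest at ZT 8, and only ZT 4 and ZT 8 overlapped. With ZT 12 left aside, AIN93G ZT 4 was the most scattered of its groups, with replicate 1 near the values of ZT 8 and replicate 2 near those of ZT 0.

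Cry1 was 5.28-fold lower at ZT 8 than at ZT 0 on AIN93G (log2 difference -2.40 ± 0.33, adjusted p = 8.84e-05) and 3.12-fold lower than at ZT 4 (-1.64 ± 0.33, adjusted p = 0.00870). The second of these was lost without AIN93G ZT 4 replicate 2 (0.124) or ZT 8 replicate 2 (0.0695). On the HFD, Cry1 rose 5.59-fold from ZT 8 to ZT 16 (2.48 ± 0.33, adjusted p = 8.99e-05). The step from ZT 0 to ZT 4 on the HFD was 2.49-fold downward with no overlap, but the adjusted p was 0.129, and it passed without AIN93G ZT 4 replicate 1 (0.0141) or 2 (0.0495) or with DESeq2 (0.00846). Between ZT 20 and ZT 0, the difference was -1.16 ± 0.31 (adjusted p = 0.255, and 0.0452 with DESeq2).

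Cry2 lies on chromosome 2 (92403646 to 92434043, - strand) and encodes a repressor that overlaps in function with CRY1. It moved least of the 5. In AIN93G liver, Cry2 was 22.9, 25.6, and 28.01 CPM at ZT 0, then 25.1, 28.7, and 28.1 CPM at ZT 4, and 39.7, 23.5, and 48.2 CPM at ZT 8, where the second library stayed within the earlier range. In HFD liver, it was 36.3, 31.5, and 29.96 CPM at ZT 0, then 37.9, 34.0, and 35.04 CPM at ZT 4, and 46.1, 40.96, and 44.1 CPM at ZT 8. It stood at 50.4, 50.3, and 50.8 CPM at ZT 16 and at 46.3, 46.4, and 43.5 CPM at ZT 20. On the HFD, ZT 0 and ZT 4 overlapped, as did ZT 8 and ZT 20, and ZT 16 lay above all other groups.

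On AIN93G, Cry2 was 1.54-fold higher at ZT 8 than at ZT 0 (0.62 ± 0.17, adjusted p = 0.0418). That call was lost in 11 of 24 omissions of 1 library (adjusted p = 0.0503 to 0.277), namely any library of AIN93G ZT 0, ZT 4 replicate 3, ZT 8 replicates 1 and 3, and HFD ZT 0 replicate 2, ZT 4 replicates 2 and 3, and ZT 20 replicates 1 and 3, and it was lost with limma voom (0.102). Without AIN93G ZT 8 replicate 2, the low library, the 3 AIN93G time points differed (adjusted p = 0.000214, against 0.0797 with it), as did ZT 8 and ZT 4 (0.00153, against 0.246). No single HFD step of Cry2 passed the test, and its largest, from ZT 20 to ZT 0, was -0.55 ± 0.17 (adjusted p = 0.384, and 0.0479 without AIN93G ZT 8 replicate 2). The Cry2 locus overlaps D930015M05Rik on the opposite strand, which had at most 59 counts in a library. Per3 overlaps Camta1 on its own strand, which had up to 271 counts in a library, more than Per3 had at ZT 0. The strand setting of the counting is not given in the sources used here, so reads of such pairs may be shared.

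**Figure D2:**
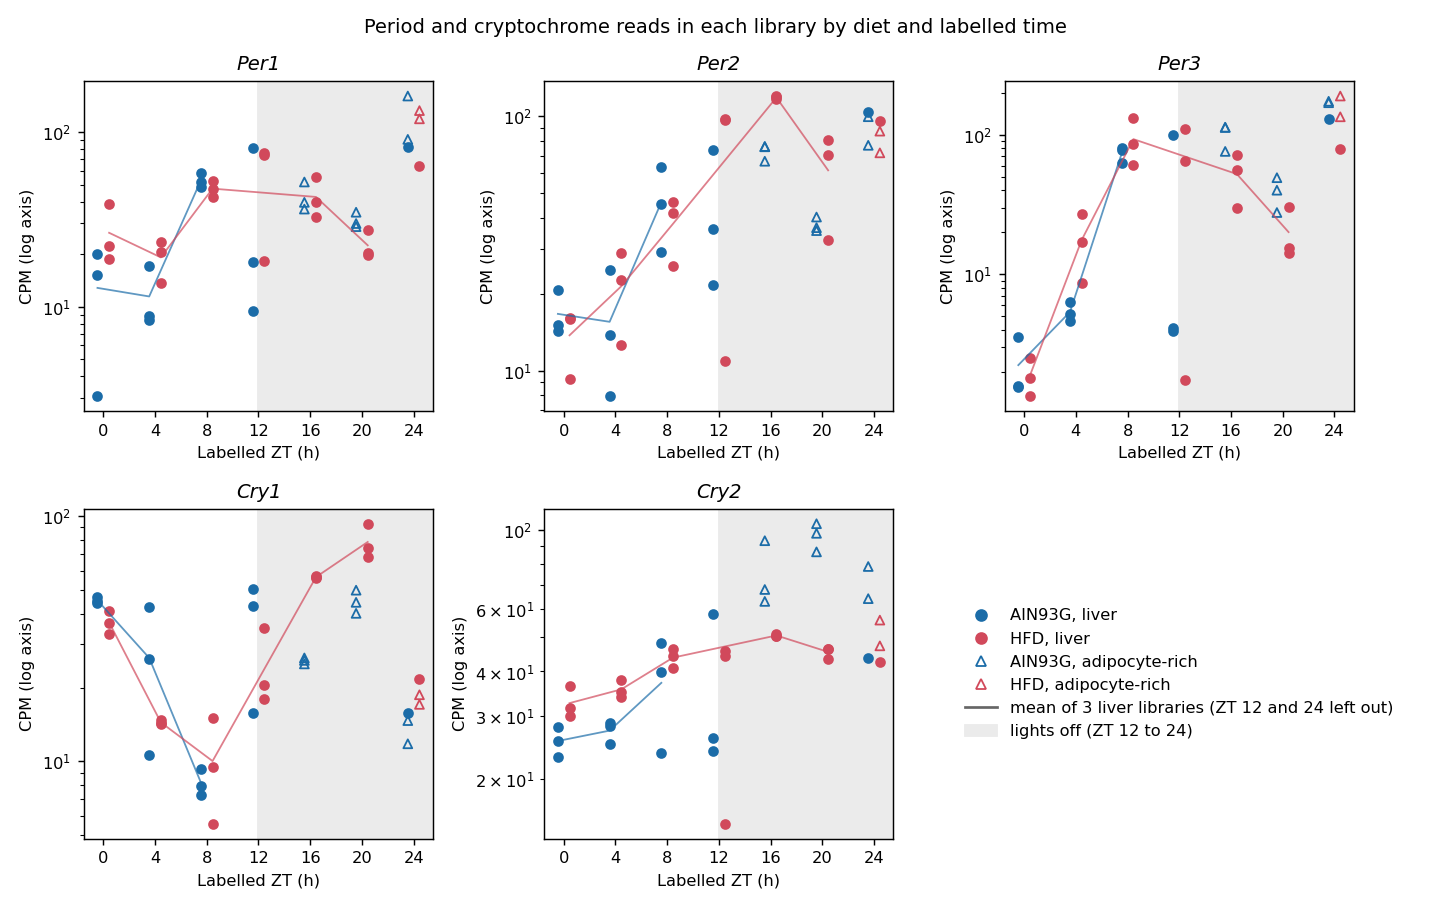
CPM of each gene (y axes, log scale) against labelled ZT in hours (x axes), with 1 point per library, blue for AIN93G and red for the HFD, filled circles for liver and open triangles for adipocyte-rich libraries; lines join means of 3 liver libraries and pass over ZT 12. Per3 spans 1.34 to 132 CPM in liver and mean Cry1 is lowest at ZT 8, whereas Cry2 stays within 14.9 to 57.9 CPM in liver.

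Because longer transcripts give more reads, levels of different genes were compared per kilobase of gene length. In HFD liver, Cry1 at ZT 20 (23.5 ± 3.9 CPM per kb, SD, n = 3) and Per2 at ZT 16 (20.3 ± 0.3) reached the highest levels. Per3 at ZT 8 (9.66 ± 3.77), Per1 at ZT 8 (8.44 ± 0.86), and Cry2 at ZT 16 (7.99 ± 0.04) had lower maxima that overlapped or nearly met. At the other end, Per3 at ZT 0 was 0.196 ± 0.061 CPM per kb, below the minima of the other 4 genes, which were 2.35 ± 0.66 for Per2, 3.00 ± 1.43 for Cry1, 3.41 ± 0.89 for Per1, and 5.16 ± 0.52 for Cry2. These levels are a description and were not tested between genes.

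The test of any time of day difference in HFD liver called 4 of the 5 (Per2, 5.20e-05; Per3, 1.00e-06; Cry1, 9.18e-06; Cry2, 0.0382, all adjusted p), where 8.68% of 12056 genes were called. The Cry2 call was lost in 15 of 24 omissions of 1 library (adjusted p = 0.0505 to 0.102), which were AIN93G ZT 0 replicate 2 and every HFD library but ZT 8 replicate 2. Over ZT 0, 4, and 8 on AIN93G, 4 of the 5 were called as well (Per1, 0.000942; Per2, 0.0129; Per3, 1.55e-07; Cry1, 0.000367), against 3.62% of all genes. Per2 was not called there without AIN93G ZT 8 replicate 2 (0.124). DESeq2 called 5 of the 5 on both diets, with Cry2 at 0.0297 on AIN93G. Over all 12056 genes, DESeq2 called 1859 on the HFD and 699 on AIN93G. With all 32 liver libraries in the fit, including ZT 12 and ZT 24, the AIN93G count fell to 2 of the 5 and the HFD count to 3, where Cry2 was lost (adjusted p = 0.440). Cry2 was also lost on the HFD with library size scaling (0.0612).

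Step by step, with the filter on low counts, the calls on AIN93G came between ZT 4 and ZT 8. From ZT 0 to ZT 4, edgeR and DESeq2 called none of the 5 on AIN93G (0.0664% of all genes by edgeR). At an unadjusted p under 0.05 there were 2, Per3 and Cry1, and 986 of all 12056 genes. From ZT 4 to ZT 8, edgeR called 4 of the 5 (1.35% of all genes), with 3 up and Cry1 down. The whole span from ZT 0 to ZT 8 gave 5 of the 5 (4.7% of all genes), with 4 up and Cry1 down. On the HFD, Per3 alone passed by edgeR from ZT 0 to ZT 4 (0.166% of all genes) and from ZT 4 to ZT 8 (1.2%). DESeq2 also called Cry1 from ZT 0 to ZT 4 (adjusted p = 0.00846). Per2 and Cry1 passed from ZT 8 to ZT 16 (11.1%), none from ZT 16 to ZT 20 by either tool (0.141%; at an unadjusted p under 0.05, the 3 PER genes and 1049 of all genes), and Per2 and Per3 from ZT 20 to ZT 0 (0.0747%). When all 32 liver libraries shared the fit, 3 of these 15 steps were still called: Per3 and Cry1 from ZT 0 to ZT 8 on AIN93G, and Cry1 from ZT 8 to ZT 16 on the HFD. Steps share time points and are not independent, and the diets' steps were compared only through the interaction given below. With no filter on low counts, edgeR called further steps, among them Per3 (adjusted p = 7.34e-07) and Cry1 (0.00244) from ZT 0 to ZT 4 on AIN93G. On the HFD these included Per1 (4.47e-05), Per2 (3.69e-06), and Per3 (6.15e-12) from ZT 16 to ZT 20. For time of day, that fit called 1264 of 29580 genes on AIN93G and 2206 on the HFD.

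A 24 h cosine curve was fitted to the log2 CPM of the 15 HFD liver libraries of ZT 0, 4, 8, 16, and 20 with limma, where the mesor is the curve's mean, the amplitude its height above the mesor, and the acrophase the hour of its peak. All 5 genes were called rhythmic, against 8.61% of 12033 genes. Per3 peaked first, at ZT 11.8 ± 0.4 (SE), with an amplitude of 2.94 ± 0.35 (adjusted p = 0.000159), the fourth largest of all genes by rank. Per1 peaked at ZT 12.1 ± 0.6 with an amplitude of 0.77 ± 0.16 (adjusted p = 0.0170), and Cry2 at ZT 13.7 ± 0.5 with an amplitude of 0.39 ± 0.06 (adjusted p = 0.00231). The Per2 peak was at ZT 14.3 ± 0.4 with an amplitude of 1.66 ± 0.19 (adjusted p = 7.30e-05). Cry1 peaked last, at ZT 19.1 ± 0.3, with an amplitude of 1.52 ± 0.10 (adjusted p = 2.38e-07).

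In order of acrophase, Per1 followed Per3 by 0.35 h, Cry2 followed Per1 by 1.59 h, and Per2 followed Cry2 by 0.53 h, each gap below 2 combined standard errors. Cry1 followed Per2 by 4.87 h, which is 9.64 combined standard errors. Standard errors were combined as for independent values, though all peaks come from the same libraries, so these gaps are a description only. Only neighbors in the order are compared, and Per3 (ZT 11.8 ± 0.4) and Per2 (ZT 14.3 ± 0.4) lay further apart. From trough to peak, the curves spanned 59.0-fold for Per3, 10.01-fold for Per2, 8.25-fold for Cry1, 2.92-fold for Per1, and 1.72-fold for Cry2. All 3 Per3 values of ZT 0 fell below the lowest point of its curve, so a single cosine understates how far Per3 dropped at that time. No library of ZT 12 entered the fit, so the peaks of all but Cry1 lie in a gap between ZT 8 and ZT 16 with no samples. The Per3 amplitude was 1.95 without ZT 0, 3.70 without ZT 16, and 1.52 with the HFD liver libraries of ZT 12 and ZT 24 added, so its fold from trough to peak depends on the times sampled, and the Cry2 amplitude was 0.19 with those libraries added. The Per1 call was lost without ZT 8 (0.120), ZT 16 (0.0997), or ZT 20 (0.0518), and with ZT 12 and ZT 24 added, only Cry1 of the 5 was still called.

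**Figure D3:**
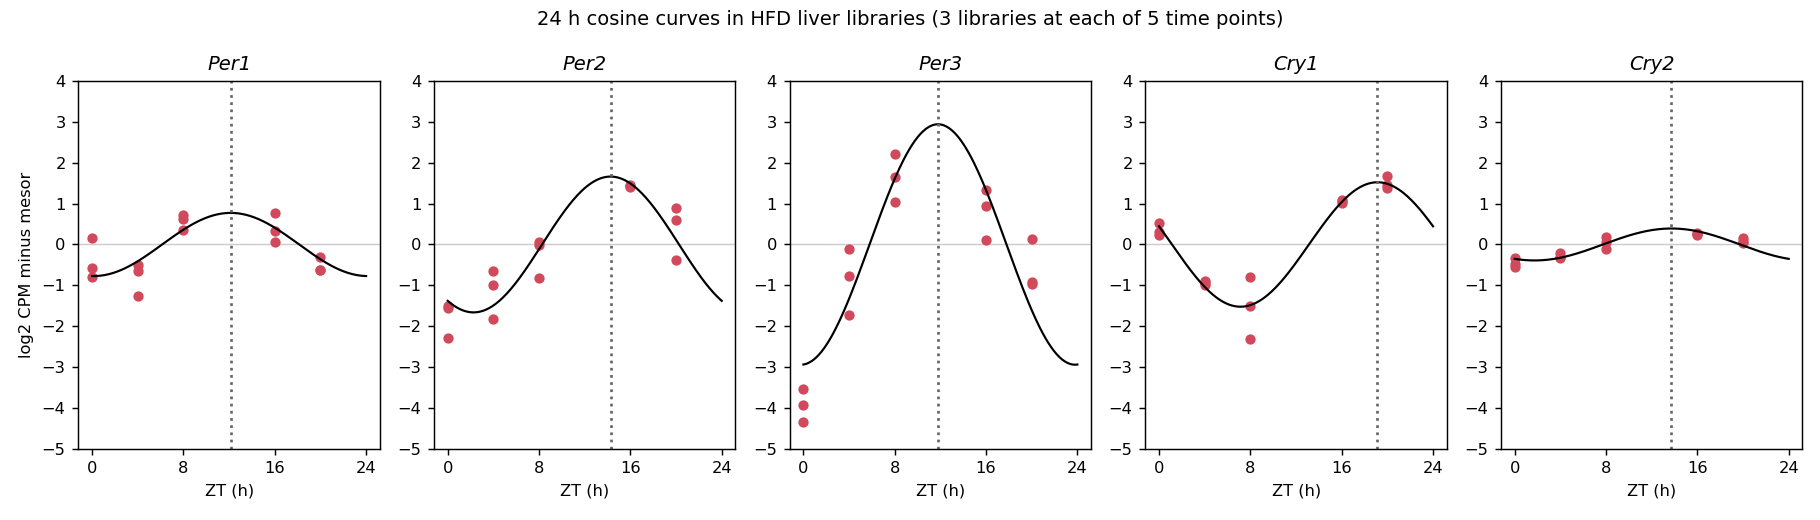
The 24 h cosine curve of each gene (black line) over the 15 HFD liver libraries (red points), with ZT in hours on the x axes, log2 CPM minus the mesor on the y axes, and a dotted line at the acrophase. Per3 has the deepest curve, with all points of ZT 0 below it, and Cry1 peaks at ZT 19.1, after the other 4 genes.

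The diets were compared in liver at ZT 0, 4, and 8, to ask whether the HFD changed these genes. None of the 5 was called at any of the 3 times, by edgeR or by DESeq2; an edgeR fit with no filter on low counts called 1 at ZT 0 and 3 at ZT 4. At ZT 0, Per1 was 2.02-fold higher on the HFD (log2 difference, HFD minus AIN93G, 1.02 ± 0.40, unadjusted p = 0.0188, adjusted p = 0.859 by edgeR), with replicate 3 of AIN93G far below its group. The HFD library with the most Per1, replicate 1, also had the highest sums of immune markers (137 CPM, against at most 66.9 CPM in the other liver libraries) and of endothelial and stellate markers (252 CPM, against at most 218 CPM), and their part in the difference was not tested. It was the only 1 of the 5 with an unadjusted p under 0.05 at that time, as were 624 of 12056 genes, when 0.00829% of all genes were called. Cry2 at ZT 0 was higher in every HFD library than in any AIN93G library (0.33 ± 0.17, adjusted p = 0.955).

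At ZT 4, Per3 showed the largest diet difference of the 5 genes. Its HFD libraries (8.65 to 27.1 CPM) were all above those of AIN93G (4.603 to 6.34 CPM), a 3.20-fold difference (log2 1.68 ± 0.42, 95% interval 0.81 to 2.55, unadjusted p = 0.000633), but the adjusted p was 0.896 by edgeR, and 0% of all genes were called at ZT 4 (396 at an unadjusted p under 0.05). Cry1 at ZT 4 was 1.83-fold lower on the HFD (-0.87 ± 0.31, unadjusted p = 0.0110), with its groups overlapping because of AIN93G replicate 1. Cry2 was again higher in every HFD library but 1.28-fold only (0.36 ± 0.17, unadjusted p = 0.0491, adjusted p = 1.00 by edgeR). At ZT 8 none of the 5 had an unadjusted p under 0.05, which 1606 of all genes had and where 0.0332% of all genes were called, and the differences ran from -0.28 ± 0.36 for Per2 to 0.32 ± 0.38 for Per3.

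Averaged over the 3 times, Cry2 was 1.23-fold higher on the HFD (0.30 ± 0.10, 95% interval 0.10 to 0.51, unadjusted p = 0.00622, adjusted p = 0.184 by edgeR), and higher at all 3 times. The mean differences of Per1 (0.53 ± 0.23) and Per3 (0.56 ± 0.26) also had unadjusted p-values under 0.05 (0.0307 and 0.0395), and those of Per2 (-0.05 ± 0.22) and Cry1 (-0.30 ± 0.18) did not. None of the 5 passed after adjustment by edgeR or DESeq2, against 0.531% of all genes (1562 genes at an unadjusted p under 0.05). Cry2 passed without AIN93G ZT 8 replicate 3 (adjusted p = 0.0436), and Per1 (0.000112) and Per3 (0.000321) passed in an edgeR fit with no filter on low counts. In that group, replicate 3 had the highest Cry2. The interaction of diet with time was called for none of the 5 and for 0% of all genes, with 1 unadjusted p under 0.05 (Per3, 0.0155, and 410 of all genes) and none called by DESeq2. The intervals still allow sizable differences: at ZT 4 that of Per2 ran from 0.79-fold to 2.33-fold. Adipocyte markers summed to 1458 to 3536 CPM in the 9 AIN93G libraries and to 2379 to 4204 CPM in the 9 HFD libraries of these times, mostly through Pck1, which hepatocytes also express, and their part in these differences was not tested.

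**Figure D4:**
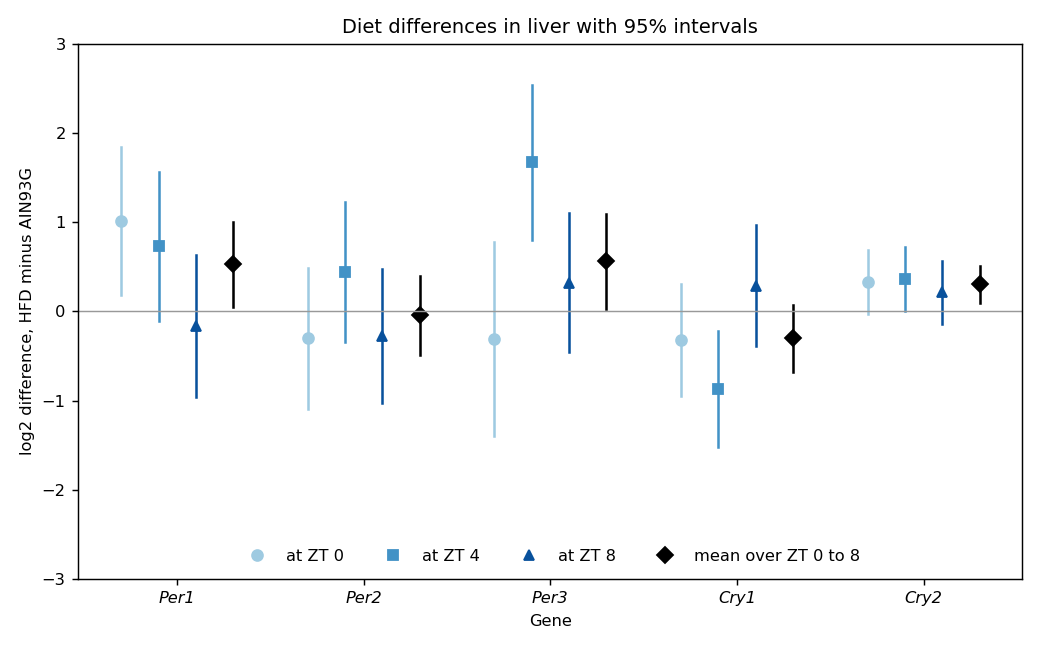
Log2 difference, HFD minus AIN93G (y axis), of each gene (x axis) in liver at ZT 0, ZT 4, and ZT 8 (3 against 3 libraries each) and for the mean of the 3 times, with unadjusted 95% intervals as lines. Only the Per3 estimate at ZT 4 lies above 1.5, and Cry2 estimates are between 0.2 and 0.4 throughout; none passed after adjustment over all genes.

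At ZT 12, the diet contrast of all 6 libraries mixed both sets described above. Per1 was 81.0, 9.48, and 17.9 CPM on AIN93G and 73.6, 75.7, and 18.4 CPM on the HFD. Per2 was 73.5, 35.9, and 21.8 CPM on AIN93G and 97.6, 97.1, and 10.9 CPM on the HFD, and Cry2 was 57.9, 25.97, and 23.9 CPM on AIN93G and 44.1, 45.6, and 14.9 CPM on the HFD. In all 5 genes the library ranges of the 2 diets overlapped, and within a diet, the libraries with much Per3 also had more Per1, Per2, and Cry2 and less Cry1 than the others. None of the 5 was called for diet by edgeR or DESeq2 (none at an unadjusted p under 0.05, which 520 of 11901 genes had, and 0% of all genes called), and intervals were wide, with that of Per3 from 0.137-fold to 18.1-fold.

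At ZT 24, the 1 liver library of each diet had Per1 at 82.3 CPM on AIN93G and 64.4 CPM on the HFD, Per2 at 104 and 95.9 CPM, and Cry2 at 43.7 and 42.5 CPM. With Per3 and Cry1 as given above, these values lay outside the range of the ZT 0 libraries in all 5 genes, and closer to the ZT 12 libraries with much Per3. There is no replicate check for them, and no test was made.

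Adipocyte-rich libraries expressed all 5 genes. At ZT 16 on AIN93G, Per1 was 51.9, 36.3, and 39.6 CPM, Per2 was 76.0, 76.2, and 66.6 CPM, and Per3 was 75.8, 112, and 113 CPM. At ZT 20, Per1 was 28.8, 29.98, and 34.8 CPM, Per2 was 36.5, 35.5, and 40.2 CPM, and Per3 was 40.0, 27.7, and 49.2 CPM. All 3 PER genes were thus lower at ZT 20 with no overlap. Cry1 went from 26.4, 24.96, and 25.8 CPM to 44.5, 49.9, and 40.1 CPM, also with no overlap, and Cry2 from 93.3, 68.0, and 63.0 CPM to 86.8, 104, and 97.8 CPM.

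In log2 terms, ZT 20 minus ZT 16 in these libraries was 0.97 ± 0.14 for Cry1, -1.20 ± 0.29 for Per3, and -0.79 ± 0.17 for Per2. None of the 5 passed after adjustment by edgeR (adjusted p = 0.290 for Cry1), and 0.00711% of all genes were called. At an unadjusted p under 0.05 there were 4, all but Per1, and 977 of 14071 genes. DESeq2 called 58 genes in all and 3 of the 5, namely Cry1 (2.40e-06), Per2 (0.0179), and Per3 (0.0165). In HFD liver, the same step was 0.47 ± 0.30 for Cry1, -1.37 ± 0.39 for Per3, and -0.96 ± 0.36 for Per2, the same signs as above. The signs also matched for Per1 (-0.28 ± 0.24 and -0.93 ± 0.39) and were opposite for Cry2 (0.54 ± 0.18 in adipocyte-rich libraries and -0.16 ± 0.17 in HFD liver). Diet and tissue both differ between these sets, and the difference was not tested. Immune markers summed to 939, 170, and 514 CPM in the adipocyte-rich libraries of ZT 16 and to 126, 77.5, and 291 CPM in those of ZT 20, and their part in these differences was not tested.

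At ZT 24, the adipocyte-rich libraries had Per1 at 161 and 91.0 CPM on AIN93G and 133 and 119 CPM on the HFD, and Per3 at 173 and 169 CPM on AIN93G and 134 and 189 CPM on the HFD. These Per3 values were above all 32 liver libraries. Cry1 was 11.8 and 14.7 CPM on AIN93G and 17.1 and 18.7 CPM on the HFD, the lowest of the adipocyte-rich libraries. Diet called none of the 5 with 2 libraries a side (0% of all genes by edgeR). At an unadjusted p under 0.05 there was 1, Cry2, and 1675 of 14071 genes. DESeq2 called 285 genes in all and Cry2 alone of the 5 (0.04998), with 78.9 and 64.1 CPM on AIN93G and 47.2 and 55.8 CPM on the HFD. One of the HFD libraries also had an immune marker sum of 668 CPM, against 51.2 to 59.5 CPM in the other 3 of these libraries, and an endothelial and stellate marker sum of 1779 CPM, against 622.5 to 808 CPM. Mammary epithelium markers summed to 207 and 285 CPM on AIN93G and to 562 and 749 CPM on the HFD, with no overlap. The part of these markers in the Cry2 difference was not tested.

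As labelled, the diet contrasts at ZT 16 and ZT 20 set HFD liver against AIN93G adipocyte-rich libraries, so diet and tissue cannot be told apart. At ZT 16, 3 of the 5 were higher on the HFD label (Cry1 4.06-fold, Per2 3.01-fold, and Per1 1.85-fold, adjusted p = 1.63e-05, 6.26e-05, and 0.0116), where 55.7% of all genes were called. At ZT 20, Cry1 (2.77-fold) and Per2 (2.59-fold) were higher and Cry2 was 1.33-fold lower (adjusted p = 4.19e-05, 0.00366, and 0.0180), where 59.3% of all genes were called. Shares of 3 in 5 are near these backgrounds. Scaling by library size alone moved the median of all genes to -0.92 at ZT 16 and -0.71 at ZT 20 on the log2 scale, and with it 4 of the 5 were called at each time. At ZT 16, the log2 difference was then 1.13 for Cry1, 0.70 for Per2, -0.57 for Cry2, -0.95 for Per3, and -0.005 for Per1, of which the last missed the threshold. At ZT 20 it was 0.80 for Cry1, -1.09 for Cry2, -0.96 for Per3, and -0.47 for Per1, and Per2 missed the threshold (0.71, adjusted p = 0.0552). The Cry2 call at ZT 20 was lost without AIN93G replicate 2 (0.0527) or HFD replicate 2 (0.0702), and Cry2 at ZT 16 passed without AIN93G replicate 1 (0.0395, against 0.120 with it).

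Partners of the loop are given from lists of clock genes, which were drawn up with earlier results of these data known. The activators Arntl, Clock, and Npas2 were called for time of day in 3 of 3 cases on each diet, against 8.68% of all genes on the HFD and 3.62% on AIN93G. From ZT 0 to ZT 8 on AIN93G, where 4.7% of all genes were called, all 3 fell, while 4 of the 5 period and cryptochrome genes rose, with Arntl at -4.60 ± 0.23 (adjusted p = 4.88e-11) and Clock at -1.26 ± 0.21 (0.000847) on the log2 scale. In HFD liver, the acrophase was ZT 21.5 ± 0.3 for Arntl and ZT 22.1 ± 0.6 for Clock, after the Cry1 peak at ZT 19.1.

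Among the nuclear receptors that act on ROR elements, Nr1d1 and Nr1d2, which encode the repressors REV-ERBα and REV-ERBβ, had acrophases at ZT 7.11 ± 0.28 and ZT 9.34 ± 0.27 in HFD liver, before those of all 5 genes. Rora, an activator at the same elements, was not called rhythmic (adjusted p = 0.409). From ZT 8 to ZT 16 on the HFD, when Cry1 rose, Nr1d1 (-4.13 ± 0.43) and Nr1d2 (-1.67 ± 0.25) fell (adjusted p = 7.43e-06 and 0.000342).

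Other genes of the clock and its output also varied with the hour. Of 7, 6 passed the filter on low counts, and all 6 were called for time of day on both diets (8.68% of all genes on the HFD and 3.62% on AIN93G) and for a 24 h rhythm on the HFD (8.61%). Dbp (ZT 9.73 ± 0.40), Ciart (ZT 11.2 ± 0.5), Tef (ZT 11.5 ± 0.4), Hlf (ZT 11.6 ± 0.6), and Bhlhe40 (ZT 12.98 ± 0.34) peaked around Per3 and Per1, and Nfil3, the D-box repressor, peaked at ZT 21.2 ± 0.3. From ZT 0 to ZT 8 on AIN93G (4.7% of all genes called), 5 of the 6 rose, among them Tef by 3.50 ± 0.27 (adjusted p = 3.59e-08), and Nfil3 fell by 2.33 on the log2 scale (adjusted p = 6.64e-07).

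Of 17 genes that modify or remove PER and CRY proteins, 2 were called for time of day on the HFD (8.68% of all genes), 1 on AIN93G (3.62%), and 4 for a 24 h rhythm (8.61%). Usp2, a deubiquitinase, was called in all 3 tests and peaked at ZT 12.7 ± 0.4 with an amplitude of 2.48 ± 0.32 (adjusted p = 0.000301). Fbxl21, an F-box protein gene, had an amplitude of 0.49 ± 0.11 with a peak at ZT 3.77 ± 0.98 (adjusted p = 0.0253), Ppp1ca, a phosphatase subunit, of 0.33 ± 0.08 (0.0334), and Prkaa2, an AMP-activated kinase subunit, of 0.39 ± 0.10 (0.0468). The casein kinase genes Csnk1d (0.14 ± 0.06) and Csnk1e (0.09 ± 0.11) and Btrc (0.20 ± 0.08) were not called (adjusted p = 0.221, 0.830, and 0.254). Of 11 genes for proteins found with PER complexes, 3 were called rhythmic (Cipc, Ddx5, and Sfpq, amplitudes 0.40 ± 0.10, 0.21 ± 0.05, and 0.23 ± 0.06), 1 for time of day on the HFD (Cipc), and none on AIN93G by edgeR. Among cell markers, 1 of 15 hepatocyte genes, 1 of 3 tested immune genes, 0 of 5 tested adipocyte genes, and 0 of 6 endothelial and stellate genes were called by edgeR for time of day in HFD liver. In AIN93G liver, 1 of 15 hepatocyte and 1 of 5 tested adipocyte genes were called, and from ZT 0 to ZT 8 the tested adipocyte genes had a median log2 difference of 0.73, against 0.01 over all genes, with 1 of the 5 called as higher; their part in the differences of that span was not tested.

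Over the 24 liver libraries of the shared fit, the genes whose log2 CPM was most like that of each gene were named by Pearson's r, as a description, since libraries of 1 group share a diet and hour. For Per1 they were Noct, a circadian phosphatase known as Nocturnin (r = 0.862), Mknk2 (0.824), and Usp2 (0.799). For Per3 they were Tef (0.975), Hlf (0.916), and Usp2 (0.912). Tef and Hlf encode D-box factors, and whether these act on the D-boxes of the Per3 window was not tested. Per2 was closest to Marveld1 (0.904), Lonrf1 (0.879), and Nmrk1 (0.876). Cry1 was closest to Ahctf1 (0.929), Palld (0.928), and Lonrf3 (0.920). Cry2 was closest to Bhlhe40 (0.821), Marveld1 (0.817), and Fam102a (0.805), and so shared 1 of its 3 with Per2.

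Among the 5 themselves, r was 0.738 between Per2 and Per3, 0.719 between Per1 and Per3, and 0.533 between Per1 and Per2. Cry2 went with the PER genes (0.559 with Per1, 0.715 with Per2, and 0.701 with Per3) rather than with Cry1 (0.118). Cry1 had an r of -0.409 with Per3, -0.288 with Per1, and 0.214 with Per2. These values describe the 24 libraries at 5 hours of the day and carry no test.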

How the data were processed

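Poly(A) RNA from 42 mice was sequenced. The authors deposited raw read counts per gene (54532 genes, of which 20401 had no count in any library), without normalization. The submitters' processing notes name fastp, STAR, HTSeq 0.6.1, DESeq, STAR-Fusion, and build mm10, with no roles. The strand setting is not given in the sources used here. Gene coordinates are those of the count table.

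Groups were taken from the diet and time point of each sample record. Libraries with Alb over 10000 CPM were treated as liver and the others as adipocyte-rich. The 5 genes, the gene lists, and the tests were chosen with earlier results of these data known. Other genes were named as members of these lists, as library markers, for an overlap with a member, or as the 3 genes with the highest Pearson's r with a member.

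CPM in the text are counts scaled to a library total of 1000000. Tests used R 4.3.3 with edgeR 4.0.16 (quasi-likelihood F-test, TMM factors of 0.942 to 1.066 in the 24-library fit, genes averaging 25 counts or more) at a Benjamini-Hochberg threshold of 0.05. Adjusted p-values of contrasts and of time of day come from edgeR except where DESeq2 1.42.0 is named, and those of 24 h rhythms from limma. ZT 12, ZT 16, and ZT 20 were each fitted with their 6 libraries, and the adipocyte-rich libraries with 10. Rhythms were fitted with limma 3.58.1 on log2 CPM (prior count 2). Intervals and standard errors of contrasts are on the log2 scale. The fits were tested on simulated data. The total counts limit precision at low levels such as Per3 at ZT 0, and cover counting error only. Alternatives were another scaling, other filters, DESeq2, limma voom, other sets of libraries, another prior count, leaving out time points, and leaving out each library. The PCR measurements of the study were not used here. Some genes of the lists are not reported here.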

Additional observations from a re-analysis of the deposited data

How the results depend on the processing

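Of 895 alternatives to called results of the 5 genes, 820 kept direction and call, 74 lost the call, and 1 changed sign. Of 1849 alternatives to results not called, 1803 were still not called and 44 passed; 31 changed sign, of which 2 were called in the new direction. The 1 sign change of a called result and these 2 came with library size scaling in the contrasts that mix tissue: Per1 at ZT 16 (-0.005) and ZT 20 (-0.47), and Cry2 at ZT 16 (-0.57). With no filter on low counts, where 29580 genes entered the fit, the diet called 1 of the 5 genes at ZT 0, 3 at ZT 4, and 2 over ZT 0 to 8, and the interaction called 3; over all genes, these fits called 227, 152, 734, and 264 in place of 1, 0, 64, and 0. Leaving out 1 library gave 0 to 1 of the 5 genes and 28 to 100 genes in all for diet over ZT 0 to 8, and 0 to 7 genes in all at ZT 0. With DESeq2, 3 of the 5 differed between ZT 20 and ZT 16 and 1 between diets at ZT 24 in adipocyte-rich libraries, and it called 1859 genes for time of day on the HFD (1047 by edgeR), 699 on AIN93G (437), 242 for diet over ZT 0 to 8 (64), 67 at ZT 8 (4), 31 at ZT 0 (1), 58 for ZT 20 against ZT 16 (1), and 285 for diet at ZT 24 (0). With all 32 liver libraries, AIN93G time of day kept 2 of the 5 genes and 135 genes in all, and the HFD 501 genes; with ZT 12 and ZT 24 included, the rhythm kept 1 of the 5 and 351 genes. The cause of these shifts was not tested. Leaving out 1 library gave 228 to 467 genes for AIN93G time of day, 708 to 1089 for the HFD, and 0 to 87 for diet at ZT 8.

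No paired analysis was possible because replicates were numbered in accession order and no pair of groups shares more than 1 of the numbers in the titles. A limma voom fit of the 24 liver libraries with a correlation within title numbers (0.0972, from 4 numbers on 9 libraries), added after seeing the data, called 5 of the 5 genes for time of day on the HFD, 4 on AIN93G, and none for diet or the interaction, the same counts as limma voom without it.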
